A study of Acipenser schrenckii with 5 samples.

Results

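Skeletal muscle of the Amur sturgeon (Acipenser schrenckii) was compared with 4 other tissues on a miRNA microarray. It is 1 of 5 samples, and it was taken by its tissue label. RNA of muscle, liver, spleen, brain and heart came, by the methods, from 1 fish of 5 months with no treatment, and each tissue was hybridized with Cy3 to 1 array. No tissue was hybridized in replicate, which leaves every difference between tissues without a replicate check, and no p-value is given. All 663 miRNA probes of the muscle array were described, of which 615 are for fish miRNAs of public record and 48 were made for sturgeon sequences. Prefixes name the species of the probe sequence, with dre for zebrafish, ola for medaka, ipu for channel catfish, ccr for common carp, fru for the pufferfish Takifugu and pol for Japanese flounder.

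MiRNAs are short RNAs that pair with messenger RNAs mainly through their seed, bases 2 to 8, and lower the output of those messengers. In vertebrates the muscle miRNAs, or myomiRs, comprise miR-1 and miR-133, which are made in skeletal and heart muscle from common precursors, miR-206, which belongs mainly to skeletal muscle, and miR-208 and miR-499, which lie in introns of myosin heavy chain genes in mammals. Each precursor has a 5p and a 3p arm, and usually 1 arm dominates. None of the probes is named for miR-208.

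The target sequences of the myomiR probes are shown because related probes, some with the same seed, differed in their muscle to heart ratios. Capitals mark the seed. The 3p probes of miR-1 and miR-206 share the seed GGAAUGU, and the 3p and 5p arms of miR-133 have unrelated seeds.
dre-miR-1: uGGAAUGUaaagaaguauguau
dre-miR-206: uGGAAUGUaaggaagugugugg
dre-miR-133a-3p: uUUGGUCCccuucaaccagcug
dre-miR-133c: uUUGGUCCcuuucaaccagcua
dre-miR-133a-5p: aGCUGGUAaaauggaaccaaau
pol-miR-133-5p: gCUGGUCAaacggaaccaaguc
dre-miR-133b-5p: gCUGGUCAaauggaaccaaguc
dre-miR-499: uUAAGACUugcagugauguuua

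The other sequences shown are those of families that stood highest or lowest in muscle without being myomiRs. They are the epithelial miR-205 and miR-203, miR-10b of the Hox clusters, the connective tissue miRNAs miR-199, miR-214 and miR-29, miR-145 of smooth muscle, the near-identical pair of miR-24 probes, and the neural miR-9.
ipu-miR-205: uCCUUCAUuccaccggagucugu
dre-miR-203a: gUGAAAUGuuuaggaccacuug
dre-miR-203b-3p: gUGAAAUGuucaggaccacuug
dre-miR-10b: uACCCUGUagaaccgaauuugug
dre-miR-199-3p: uACAGUAGucugcacauugguu
dre-miR-199-5p: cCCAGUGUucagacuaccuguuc
dre-miR-214: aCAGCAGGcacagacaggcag
ola-miR-24b-3p: uGGCUCAGuucagcagga
ola-miR-24c: uGGCUCAGuucagcagaa
dre-miR-29b: uAGCACCAuuugaaaucagugu
dre-miR-145: gUCCAGUUuucccaggaauccc
dre-miR-9-5p: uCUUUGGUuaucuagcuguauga

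The Signal of a probe, in array units, averages its 5 spots after background correction and cyclic loess normalization between the arrays, and the value after ± gives their SD. A probe was called detected when most of its spots lay above the empty spots of the same array by more than 3 SD. Detection was called before normalization, so an undetected probe can have a higher Signal than a detected one. The muscle array had the lowest spread of the 361 empty spots (SD 4.91, against 5.90 to 58.5 on the others), and 431 probes were detected there, against 197 in liver, 333 in spleen, 370 in brain and 345 in heart. The lowest detected Signal was 28.0 in muscle, from 49.6 to 58.2 in spleen, brain and heart, and 365.6 in liver, so a dim probe could be seen in muscle and missed in liver. Where a probe was not detected in a tissue, the ratio was taken against the higher of its own Signal and that limit, and such a ratio is a lower bound, worded with "at least". Before normalization the 170 probes detected on all arrays had a median muscle to heart ratio of 0.256, whereas 22 bright probes that the array files class as spike calibration controls had 0.814. Cyclic loess brought the first of these ratios to 1.08, so ratios between tissues are relative to the bulk of the miRNAs on each array. Whether total miRNA differed between the tissues was not tested.

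Muscle-high probes were defined as detected in muscle with Signal above 500 and at least 2-fold above every other tissue. There were 32 of them, which is 4.83% of the 663 probes, and they fell into 10 families. The miR-133 family gave 11, miR-199 gave 5, miR-214 gave 3, and miR-1, miR-206, miR-203, miR-205, miR-10 and miR-184 gave 2 each, with 1 probe of miR-24. None of the probes made for sturgeon sequences was among them. The count was 51 with liver left out of the comparison, though not out of the normalization, and 11 with no normalization between arrays. Probes of a family differ by a few bases and can bind the same RNA, so they are not separate miRNAs. Heart was the highest other tissue for 17 of the 32, spleen for 3 and brain for 2. For the other 10 it was liver, but 6 of these (both miR-205, both miR-203, ola-miR-206 and ccr-miR-10b) were not detected in liver and were compared only with its limit. The nearest probes inside the 2-fold limit were fru-miR-184 (2.13), ola-miR-214 (2.18) and ola-miR-199a-5p (2.22), and those measured just outside were ipu-miR-214 (1.99) and fru-miR-10d (1.82). The dre-miR-10d-5p probe, at least 1.98-fold above the limit of liver, where it was not detected, cannot be placed on either side.

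**Figure D1:**
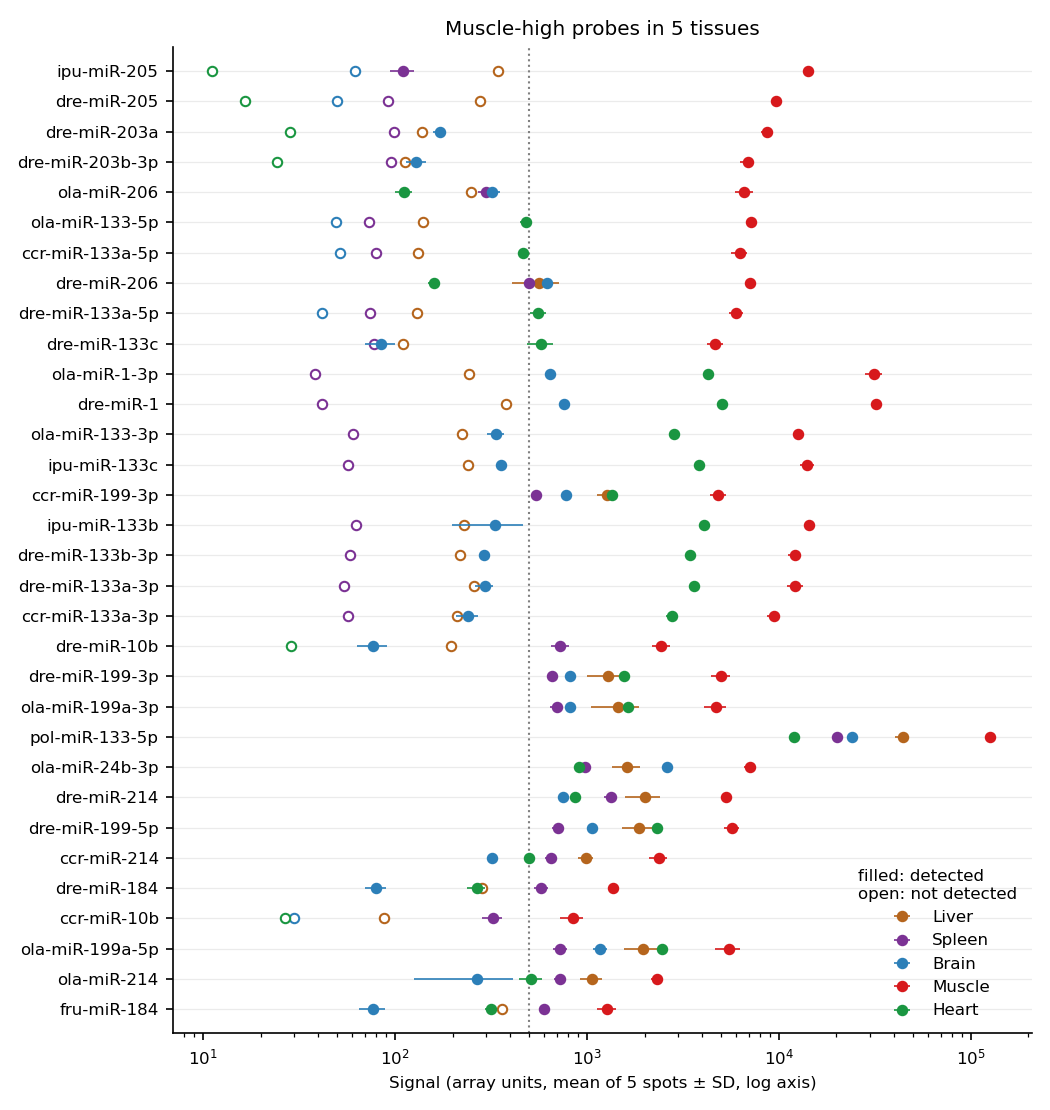
Signal of the 32 muscle-high probes in the 5 tissues, on a log axis, sorted by the ratio of muscle to the highest other tissue. Points are means of 5 spots with the SD over spots, open points are tissues where the probe was not detected, and the dotted line is the Signal of 500. Heart is the nearest tissue for miR-1, miR-199 and miR-133 (except pol-miR-133-5p, nearest to liver) and among the lowest for miR-206, miR-203, miR-205 and miR-10b.

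MiR-1, the most abundant miRNA of vertebrate muscle, marked the sample as its label says. The dre-miR-1 probe had Signal 32078 ± 1855 in muscle, 5049.5 ± 272 in heart and 764 ± 29.6 in brain, with no detection in liver or spleen. Muscle and heart were thus the bright tissues, with muscle 6.35 ± 0.502-fold above heart. The medaka probe ola-miR-1-3p, a base shorter at the 3′ end, gave 31287 ± 3215 in muscle, 4257 ± 202.7 in heart and 645 ± 31.3 in brain, which is 7.35 ± 0.832-fold over heart. These were the probes of rank 2 and 3 on the muscle array. Without normalization the muscle to heart ratio was 1.58 for dre-miR-1 and 1.92 for ola-miR-1-3p. The 5p arm was dim, with 288 ± 47.4 for ola-miR-1-5p and 266 ± 49.1 for ipu-miR-1 in muscle against 90.1 ± 6.95 and 87.0 ± 4.28 in heart, and neither was detected elsewhere.

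MiR-206 has the seed of miR-1 and promotes the differentiation and repair of skeletal muscle in mice. The dre-miR-206 probe had Signal 7066 ± 383 in muscle, 621 ± 49.7 in brain, 562 ± 154.9 in liver, 498 ± 20.5 in spleen and 159.7 ± 11.6 in heart. Heart was the lowest tissue here, unlike for miR-1, and muscle was 44.2 ± 4.01-fold above it. With ola-miR-206 the values were 6608 ± 696 in muscle, 319 ± 35.6 in brain, 297 ± 25.4 in spleen and 112 ± 11.3 in heart, with no detection in liver and a muscle to heart ratio of 59.2 ± 8.66. Both ratios stayed above 10 without normalization, at 12.2 and 18.9. The 5p probe pol-miR-206-5p was detected in muscle alone, at 50.6 ± 8.93.

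MiR-133 represses serum response factor in mice. Of its 12 probes all were detected in muscle (431 of 663 over all probes) and 11 were muscle-high (32 of 663). The 3p arm was bright in muscle and heart. The dre-miR-133a-3p probe had 12226 ± 1113 in muscle, 3599 ± 109 in heart and 293 ± 32.0 in brain, and was not detected in liver or spleen. The 7 probes of this arm had muscle to heart ratios from 3.39 to 4.40, except dre-miR-133c with 8.12 ± 1.49 (4676 ± 448 in muscle, 576 ± 90.0 in heart). The 3p ratios rest on the normalization, since without it 5 of these probes, all but ola-miR-133-3p (1.32) and dre-miR-133c (3.07), were between 1.01 and 1.08, so that muscle and heart did not differ beyond the spread of the spots.

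The 5p arm of miR-133a separated skeletal from heart muscle more widely. The ola-miR-133-5p probe read 7189 ± 104 in muscle, 481 ± 31.5 in heart and nothing above background in liver, spleen or brain. Muscle was 14.9 ± 1.002-fold above heart, and ccr-miR-133a-5p (6265 ± 589 and 463 ± 24.6) and dre-miR-133a-5p (5998 ± 522 and 559.7 ± 51.2) gave 13.5 ± 1.46 and 10.7 ± 1.35. Without normalization these ratios were 5.63, 5.15 and 4.10. All 3 ratios were larger than those of all 7 3p probes under cyclic loess, quantile, 75th percentile and spike scaling and with none.

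The pol-miR-133-5p probe was the brightest of all in muscle and stands apart from the other miR-133 probes. It had Signal 126306 ± 4414 in muscle, 44249 ± 3770.1 in liver, 24053 ± 1474 in brain, 20156 ± 1126 in spleen and 12079 ± 756 in heart, so it was bright in every tissue. Its raw density before any correction was 53921 in muscle and 51363 in brain, where the highest spot of the muscle array had 56526, and heart had 40195. Muscle was 2.85-fold above liver after cyclic loess, and with no normalization it was 1.05-fold above the highest other tissue. Quantile normalization gives the brightest probe of each array 1 common value, so it allows no ratio for this probe. Its target differs from that of dre-miR-133b-5p by the substitution U11C, written from the zebrafish to the flounder sequence and counted from 1 at the 5′ end, yet dre-miR-133b-5p was detected in muscle alone, at 108 ± 21.7. Levels of different probes cannot be set against each other on an array, so no ratio is given between them.

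MiR-499, which in mammals is made with slow and cardiac myosin heavy chains, ran the other way. The dre-miR-499 probe had 2335 ± 267 in muscle and 12797 ± 2640.2 in heart, and outside these tissues it was detected only in spleen, at 82.0 ± 9.97. Heart was 5.48-fold above muscle. The ipu-miR-499 probe gave 2573 ± 481 and 13709 ± 241 (5.33-fold), and the other arm, ola-miR-499, gave 297 ± 39.9 and 2459.6 ± 141.4 (8.29-fold). A probe made for a sturgeon sequence, which is dre-miR-499 with an added base at the 3′ end, had 2146 ± 162 in muscle and 15109.9 ± 987 in heart. For these 4 probes heart stayed above muscle in each of the normalizations tried, with muscle to heart ratios no higher than 0.358, the value of ipu-miR-499 under 75th percentile scaling.
sturgeon probe: uUAAGACUugcagugauguuuac

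As a list, 22 of 22 myomiR probes were detected in muscle, 19 were highest there and 15 were muscle-high. Over all 663 probes, 431 were detected in muscle and 32 were muscle-high. Of the 477 probes detected in any tissue, 28.9% were highest in muscle. The median log2 ratio of muscle to the median of the other 4 tissues was 4.60, against -0.22 over all 477 probes detected in any tissue. Against heart alone, 18 were at least 2-fold above and 3 at least 2-fold below, where 27.8% and 9.05% of all probes tested were.

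**Figure D2:**
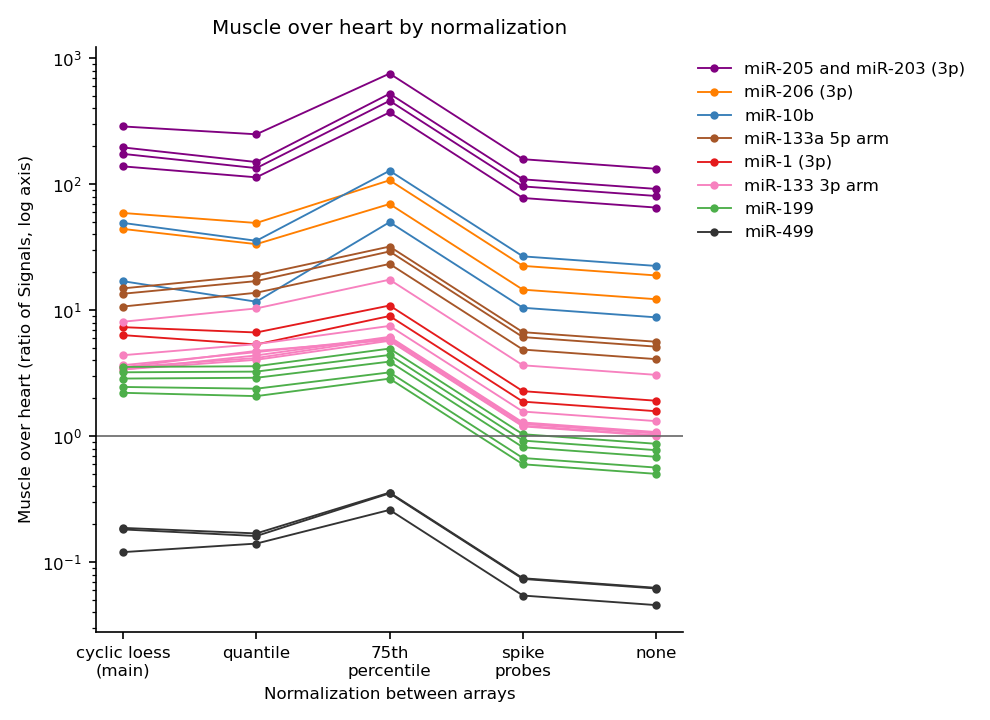
Ratio of muscle to heart Signal (log axis) for families of muscle-high probes and miR-499 under 5 ways of scaling the arrays, with each line 1 probe. Cyclic loess is the main processing, and the spike scaling was added after the data were seen. The muscle-high miR-203 and miR-205 probes are on top and miR-499 below 1 in all 5, but the miR-199 probes fell below 1 with no normalization and, in 4 of 5, with spike scaling.

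The muscle array also carried miRNAs that in vertebrates belong to skin and other epithelia. The ipu-miR-205 probe had Signal 14267 ± 938 in muscle, 110.3 ± 15.5 in spleen and no detection in liver, brain or heart. Muscle was thus at least 39.0-fold above liver, the tissue with the highest limit, and at least 288-fold above heart. The dre-miR-205 probe, a base shorter, was detected in muscle alone, at 9721 ± 227. MiR-203, which in mice drives epidermal cells out of the stem cell state, followed the same pattern. The dre-miR-203a probe had 8641 ± 559 in muscle and 172 ± 13.7 in brain, and dre-miR-203b-3p, which differs by U11C, had 6879 ± 571 and 129.6 ± 14.9. Neither was detected in liver, spleen or heart.

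The 5p strand of miR-203 was also seen in muscle only, at a low level. Of 4 named probes with the 5p seed GUGGUUC, 3 were detected there and in no other tissue, at 147 ± 25.7 for ipu-miR-203a, 141.1 ± 16.4 for ccr-miR-203b-5p and 129.2 ± 17.4 for pol-miR-203-5p, and dre-miR-203b-5p was detected nowhere. These Signals lie under the limit of liver. A probe made for a sturgeon sequence with the same seed read 230.4 ± 14.8 in muscle and was not detected elsewhere.
sturgeon probe: aGUGGUUCuaaacaguucaaca

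The miR-200 family, which holds epithelial cells together by repressing the ZEB factors in mammals, had a different spread. The dre-miR-200a probe had 3380.3 ± 435 in muscle, 3231 ± 815 in liver, 799.7 ± 65.5 in heart and 405 ± 22.5 in spleen, with no detection in brain. Muscle and liver did not differ beyond the spread of the spots. For ccr-miR-200a liver (4528 ± 487) was above muscle (3009 ± 404). Over the whole skin and epithelium list, 21 of 22 probes were detected in muscle (431 of 663 over all probes). Muscle was highest for 11 (28.9% over all detected probes), 4 were muscle-high (32 of 663), and the median log2 ratio was 1.90. The summed detected Signal of the list was 60448 in muscle, 25622 in liver, 6095 in heart, 3223 in spleen and 384 in brain. Related probes that can bind 1 RNA are each added in this sum, and undetected probes are left out. In muscle miR-205 gave 24060 of it and miR-203 gave 15995, whereas miR-200 summed to 15305 in muscle and 19021 in liver. Which cells of the muscle sample carried these miRNAs was not tested. None of the 22 probes was detected in all 4 other tissues.

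A sensory cluster of miR-183, miR-96 and miR-182, known from sense organs and found in 1 cluster in vertebrates, was detected at a low level. Of 12 probes, 9 were detected in muscle (431 of 663 over all probes) and, besides muscle, only in brain. Each of the 9 was highest in muscle among the tissues where it was detected (28.9% over all detected probes). The lead over brain was small, with a summed detected Signal of 1325 in muscle and 1064 in brain. Without normalization the median log2 ratio of muscle to brain over all probes tested fell from -0.10 to -1.16, so the order of muscle and brain is not firm here. The brightest, hhi-miR-96 (hhi for halibut), had 260.5 ± 49.6 in muscle and 215 ± 13.4 in brain, a difference within the spread of the spots. These Signals, 91.3 to 260.5, are under the lowest detected Signal of liver, so liver cannot be ranked here.

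Among connective tissue miRNAs, miR-199 and miR-214 were high in muscle and miR-29 was low. Muscle was highest for 5 of 5 probes of miR-140, with none muscle-high, and for 0 of 5 of miR-455, with none muscle-low (28.9% over all detected probes were highest in muscle). The median log2 ratio of miR-140 was 0.87, against -0.22 over all detected probes. With no normalization it was -0.40, against -1.15. MiR-199 and miR-214 come from a common transcript of the Dnm3 locus in mammals and mark mesenchyme. The dre-miR-199-3p probe had 5013 ± 562 in muscle, 1556 ± 41.8 in heart, 1284 ± 276 in liver, 819 ± 41.2 in brain and 659 ± 37.9 in spleen, which is 3.22 ± 0.372-fold over heart. The 5p arm gave 5706 ± 524 for dre-miR-199-5p in muscle, against 2315 ± 66.1 in heart, or 2.46 ± 0.237-fold. These differences passed the spread of the spots, but with no normalization all 5 muscle-high miR-199 probes were higher in heart, with muscle to heart ratios from 0.504 to 0.873. The dre-miR-214 probe had 5345 ± 250.2 in muscle, 2002 ± 420.3 in liver, 1331 ± 94.4 in spleen, 866 ± 30.3 in heart and 749.6 ± 42.5 in brain. Muscle was 2.67 ± 0.574-fold above liver, and it stayed highest for the 3 muscle-high miR-214 probes in each setting tried, by 1.33-fold or more.

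MiR-29, which restrains collagen and elastin messengers, was lowest in muscle for the 3 of its 8 probes that were detected in the 4 other tissues. Muscle-low probes were those detected in the 4 other tissues and at least 2-fold lower in muscle than in each, and there were 4 of the 170 probes that could qualify (2.35%), 2 of miR-29 and 2 of miR-145. The ola-miR-29a probe had 256 ± 28.3 in muscle, 586 ± 52.7 in spleen, 859 ± 116 in liver, 1162 ± 564 in heart and 2858 ± 136.9 in brain. Brain was the brightest tissue and muscle lay 2.29 ± 0.325-fold under spleen, the next lowest. For dre-miR-29b the values were 738 ± 61.1 in muscle, 1511 ± 558 in liver, 2879 ± 151.6 in spleen, 3742 ± 242 in heart and 5885 ± 235 in brain, and the liver value has a wide spread, so that the 2.05 ± 0.774-fold gap to liver is not firm. In ccr-miR-29b, muscle (684 ± 77.9) and liver (747 ± 234) did not differ beyond the spots. Over the mesenchymal list 24 of 28 probes were detected in muscle (431 of 663 over all probes), and 14 were highest there (28.9% over all detected probes). Muscle-high were 8 (32 of 663), and muscle-low were 2 of the 16 that could qualify. The list's median log2 ratio was 0.84, against -0.22 over all detected probes. With no normalization it was -0.41, against -1.15 over all detected probes.

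Markers of vessels were low. MiR-145 and miR-143, which keep smooth muscle cells contractile in mice, had 5 probes, and muscle was the lowest tissue for all 5, against 29 of the 170 probes (17.1%) detected in the other 4 tissues. The dre-miR-145 probe had 1980.5 ± 155.009 in muscle, 4001 ± 319 in spleen, 4338 ± 181.6 in brain, 6255 ± 257 in heart and 10253 ± 811 in liver, so muscle lay 2.02 ± 0.226-fold under spleen. The ipu-miR-145 probe gave 2172 ± 261 in muscle and 4511 ± 227 in spleen, a gap of 2.08 ± 0.270-fold. For ccr-miR-143, muscle (2595 ± 265) was nearest to brain (3229 ± 177), and liver was highest at 11791 ± 628. The median log2 ratio of this list was -1.36. MiR-126, the miRNA of endothelial cells, was lowest in muscle in 4 of 5 detected probes (17.1% over all), with a median of -0.67. Its probe dre-miR-126a-3p had 2609 ± 366 in muscle, 3380.4 ± 259 in spleen, 3862 ± 186 in brain, 4077 ± 158 in heart and 4256 ± 1723 in liver.

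**Figure D3:**
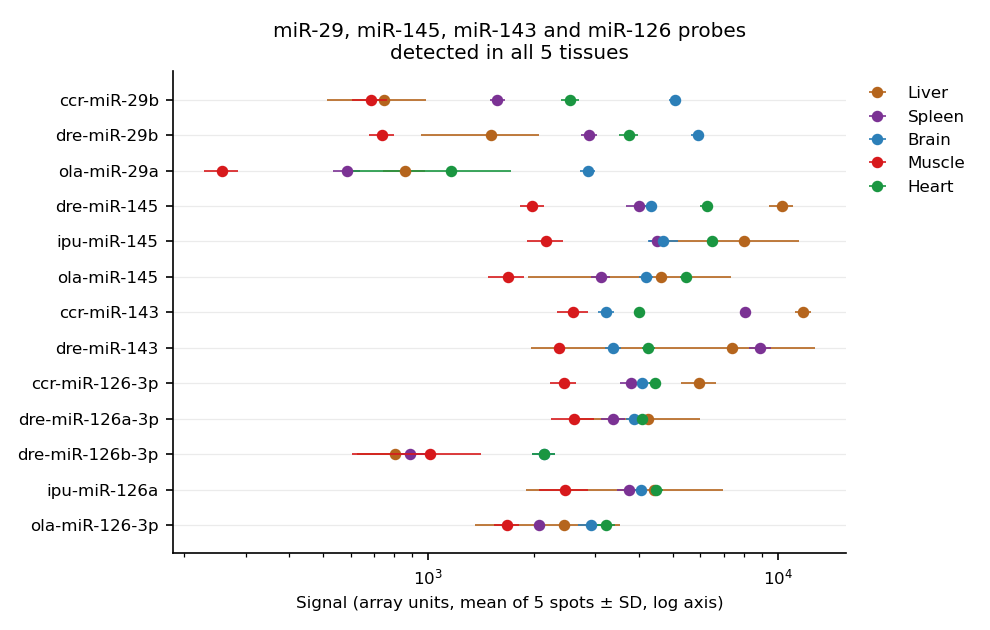
Signal of the miR-29, miR-145, miR-143 and miR-126 probes detected in all 5 tissues, as means of 5 spots with the SD over spots on a log axis. Muscle is the lowest tissue for each probe but dre-miR-126b-3p, and several liver values have wide bars.

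Members of the Hox clusters were highest in muscle among the tissues where they were detected. MiR-10 and miR-196 lie between Hox genes and follow their expression along the body axis in vertebrates. Of 19 probes, 16 were detected in muscle, and in each of the 16 no other tissue had a higher detected Signal. Over all 663 probes 431 were detected in muscle, and of those detected in any tissue 28.9% were highest there. None of the 19 was detected in liver, so liver cannot be ranked for those under its limit of 365.6, which include all miR-196 probes. The dre-miR-10b probe had 2447 ± 257 in muscle, 729 ± 74.8 in spleen and 77.0 ± 13.8 in brain and was not detected in liver or heart. Muscle was 3.36 ± 0.493-fold above spleen, and this ratio was from 3.23 to 5.01 over the settings. The ccr-miR-10b probe, a base shorter, had 844 ± 117 in muscle and 323 ± 37.4 in spleen. MiR-10a and miR-10c were closer to spleen, with 1057 ± 125.5 against 739.7 ± 150.2 for dre-miR-10a-5p and 722 ± 90.1 against 499.9 ± 34.7 for ccr-miR-10c. The 7 miR-196 probes detected in muscle read only from 50.3 to 113 there. Of these, 2 were detected in spleen, 1 in heart and 0 in brain. Most of them thus count as highest in muscle because no other array detected them, and the muscle array had the lowest limit. The list's median log2 ratio was 1.27, and 8 of its probes were at least 2-fold above heart, against 123 of 442 over all probes, and without normalization these were 8 of the list and 29 over all.

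MiR-184 and miR-24 completed the muscle-high set. The dre-miR-184 probe had 1377 ± 66.7 in muscle, 579 ± 49.1 in spleen, 267 ± 29.1 in heart and 80.0 ± 10.006 in brain, and was not detected in liver, which is 2.38 ± 0.232-fold over spleen. The medaka probe ola-miR-24b-3p had 7059 ± 429.3 in muscle, 2603 ± 149.9 in brain, 1627 ± 267 in liver, 984 ± 23.4 in spleen and 916 ± 42.1 in heart, a ratio of 2.71 ± 0.227 to brain. The ola-miR-24c target differs from it by G17A, written from 24b to 24c, and read 631 ± 50.2 in muscle, and dre-miR-24, whose sequence is longer at the 3′ end, read 1631 ± 132.9. In these probes muscle was above the next tissue by 1.19 ± 0.137-fold and 1.47 ± 0.281-fold.

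**Figure D4:**
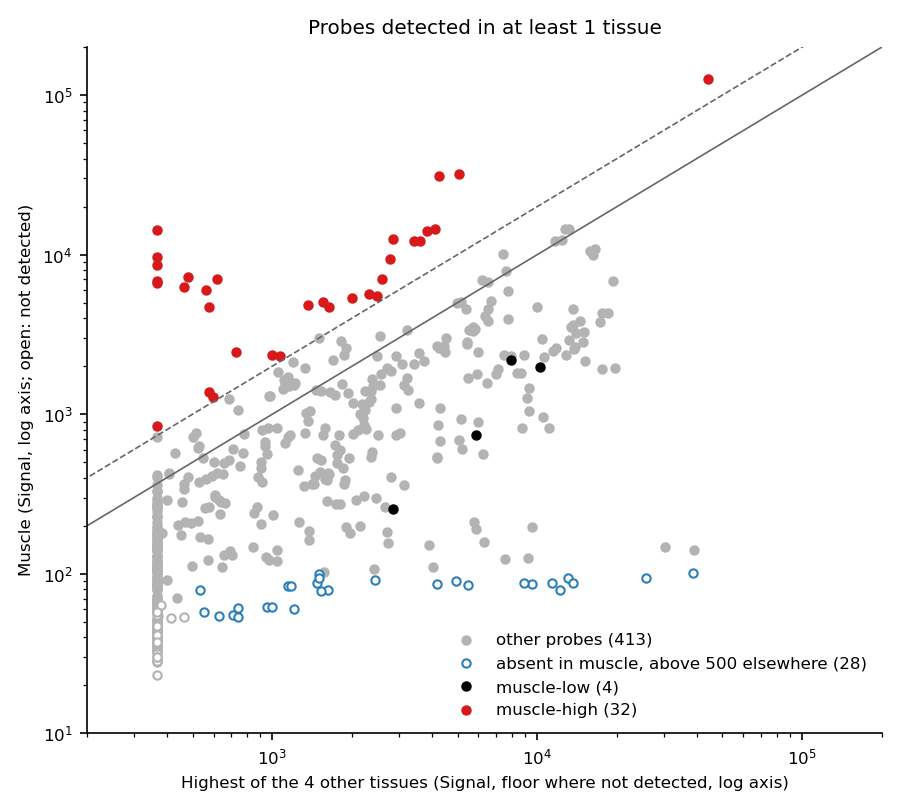
Muscle Signal against the highest of the 4 other tissues for the 477 probes detected in at least 1 tissue, both axes log. A tissue without detection enters at its limit, the solid line is equality and the dashed line 2-fold above it. The 32 muscle-high probes lie above the dashed line, and the 28 probes absent in muscle but above 500 elsewhere lie at Signals of about 100 or less whatever the other tissue.

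A set of 28 probes (4.22% of the 663) was not detected in muscle and had Signal above 500 in another tissue. In 26 of these the bright tissue was brain, and the remaining probes, ccr-miR-217 and ola-miR-122, were highest in liver. Of all probes above 500 in some tissue, brain was highest for 116, spleen for 80, muscle for 67, liver for 39 and heart for 19. All 6 probes of miR-9, a regulator of neural progenitors, were in the set. The dre-miR-9-5p probe had 38583 ± 1330.0 in brain and 312 ± 17.8 in heart and was not detected in the other 3 tissues. MiR-124, the chief neuronal miRNA, had 3 of its 7 probes in the set, with dre-miR-124 at 12148 ± 607 in brain and undetected in every other tissue. The set also held 5 of 6 probes of miR-135, both miR-212 probes and members of miR-129, miR-132, miR-137, miR-138, miR-153 and miR-219. Of the 64 probes on the whole neural list, 50 were detected in brain, 26 in heart, 24 in muscle, 15 in spleen and 7 in liver. Over all 663 probes 370 were detected in brain and 431 in muscle. The brightest neural probe in muscle, ola-miR-204, had 1951 ± 282 there and 19592 ± 1041 in brain.

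Marker miRNAs of liver and pancreas were faint in muscle, apart from miR-375, and no probe of either list was detected in heart. At least 2-fold above heart were 6 of 7 pancreas probes and 7 of the 10 detected liver probes (27.8% of all probes tested). Each of these ratios was taken with heart undetected. Without normalization only the 2 miR-375 probes among them stayed at least 2-fold above heart. MiR-122, the liver miRNA, read 140.3 ± 21.7 in muscle and 39195 ± 1963 in liver with dre-miR-122. MiR-216a, a miRNA of the exocrine pancreas, read 123 ± 13.3 in muscle, 2976 ± 217.98 in spleen and 7533 ± 3614 in liver with dre-miR-216a. MiR-375, of islet and other endocrine cells, was higher, with 515 ± 34.8 in muscle for ipu-miR-375, 688 ± 63.5 in liver and 201 ± 10.7 in spleen, and no detection in brain or heart. Blood cell miRNAs were present. The dre-miR-451 probe, of the red cell miRNA miR-451, had 6819 ± 714 in muscle, near heart (6476 ± 287) and liver (6988 ± 489.6) and below spleen (19347 ± 997). MiR-142, of white cells, had 1267 ± 89.3 in muscle with ccr-miR-142-3p, against 9176 ± 184 in spleen and 4377 ± 309 in heart. The red cell list had a median log2 ratio of -0.07 with 6 of 6 probes detected in muscle, and the white cell list -0.66 with 17 of 18. Over all probes 431 of 663 were detected there. In whole tissue, fewer cells of a type and less RNA per cell cannot be told apart.

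Against heart, the other striated muscle, 123 of 442 probes (27.8%) were at least 2-fold higher in skeletal muscle and 40 (9.05%) at least 2-fold lower. The lower group held miR-499 and members of the white cell, miR-29, miR-145 and miR-101 families. The dre-miR-150 probe, of mature lymphocytes, had 539.7 ± 49.2 in muscle and 4199 ± 169.6 in heart. In all the group held 10 of the 18 white cell and immune probes, 5 miR-29 probes, 3 miR-145 probes and 4 of miR-101. Neural probes went both ways, with 4 at least 2-fold lower in muscle than in heart and 6 at least 2-fold higher. The dre-miR-101a probe had 582 ± 46.4 in muscle and 1899.5 ± 52.7 in heart. The widest gap was that of dre-miR-153a, with 109.6 ± 18.004 in muscle and 1308 ± 203.2 in heart, 11.9-fold. Of the 40, 24 stayed at least 2-fold lower with 75th percentile scaling. The median log2 ratio of muscle to heart over the probes tested was 0.16 in the main processing. It was lower with no normalization (-1.10), spike scaling (-0.85) and quantile normalization (-0.39). These settings thus lean toward lower values in muscle and do not test this. Of the 123 higher probes only 29 stayed at least 2-fold higher without normalization, among them 8 of miR-10, 4 each of miR-133 and miR-203, and 2 each of miR-1, miR-96, miR-205, miR-206 and miR-375.

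The remaining comparisons gave 53 of 434 probes at least 2-fold above liver (12.2%) and 157 below it (36.2%). Against spleen, 110 of 437 were above (25.2%) and 79 below (18.1%), and against brain 115 of 471 were above (24.4%) and 127 below (27%). Across probes detected in both tissues, Spearman's rho of Signal with muscle was 0.792 for heart (334 probes), 0.649 for brain (330) and 0.599 for spleen (327). It was lowest for liver, at 0.554, over fewer probes, since only 197 were detected in liver. These values are descriptions over probes that share arrays, families and base composition.

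Families with broad expression in vertebrate tissues were near the bulk of the probes. The let-7 list, of 20 probes, all detected in muscle (431 of 663 over all probes), had a median log2 ratio of -0.28. The dre-let-7f probe had 4574 ± 346 in muscle, 4949.8 ± 269.7 in heart and 13596 ± 363 in brain. MiR-30 had a median of -0.08, with dre-miR-30e-5p at 6885 ± 341 in muscle and from 4679 to 6205 in the other tissues. MiR-26a was among the 10 brightest probes of muscle, with 14407 ± 1041 for dre-miR-26a, and stood between 9935 and 12731 elsewhere, so muscle was above the next tissue by 1.13 ± 0.172-fold, within the spread of the spots. The 10 brightest probes held 33.3% of the detected Signal in muscle, and besides miR-26 and ipu-miR-205 they were myomiRs and dre-miR-462. MiR-462, a fish miRNA made with miR-731, had 12338 ± 1841 in muscle and 12418 ± 733 in spleen with dre-miR-462, against 4457 ± 2400.0 in heart, 4254 ± 769.9 in liver and 3501 ± 327 in brain. MiR-148 and miR-152 had a list median of 1.11, with ola-miR-152 at 2887 ± 373 in muscle and 1824 ± 224 in brain, a ratio of 1.58 ± 0.282.

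**Figure D5:**
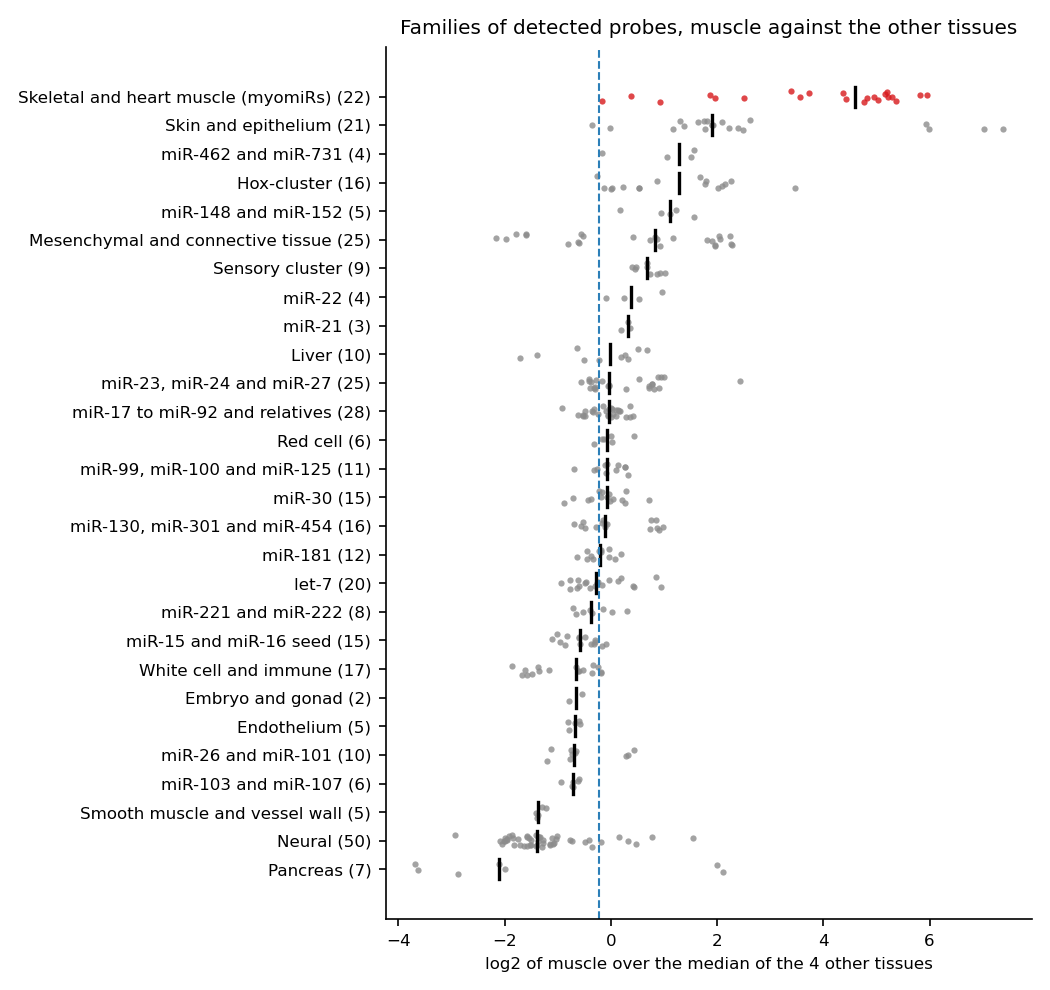
Log2 of muscle over the median of the 4 other tissues for each detected probe of 28 lists of miRNA families, with list medians as black bars, the median over all detected probes (-0.22) as the dashed line and the number of detected probes in brackets. The myomiRs stand highest (4.60) and the pancreas (-2.10), neural (-1.38) and smooth muscle (-1.36) lists lowest. With no normalization the median over all detected probes is -1.15. The medians of the mesenchymal (-0.41), miR-148 and miR-152 (-0.16), miR-462 and miR-731 (-0.49), miR-21 (-0.96) and miR-22 (-0.84) lists then fall below 0 but stay above -1.15. Tissues without detection enter at their limits. Of the 50 neural probes detected anywhere, 7 were detected in liver, so the neural median rests in part on liver's limit (365.6).

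Detected in muscle and in no other tissue were 44 probes, against 28 for brain, 3 for spleen, 2 for liver and 0 for heart. Only dre-miR-205 of these was above 500, and 37 were below 100. The lowest detected Signal of an array was smallest in muscle (28.0), and 43 of the 44 lay under that of liver (365.6), so for these liver cannot be ranked. Dim detected and undetected probes overlap in Signal, since the 28 probes absent in muscle but above 500 elsewhere read from 53.4 to 100.6 in muscle. Of the 48 probes made for sturgeon sequences, 22 were detected in muscle, and 7 of these were above 500 there. Brain and spleen had 18 each, heart 16 and liver 6. Muscle also led over all 663 probes, with 431 detected against 197 (liver) to 370 (brain), so this lead is not particular to the sturgeon probes.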

How the data were processed

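Total RNA (by the methods 4 µg a tissue) was labelled with Cy3 and hybridized to µParaflo arrays, 1 per tissue, with 5 spots per probe. The label of the brain sample is spelled Bain. The deposited scanner files hold raw spot intensity, before background subtraction or normalization by the authors. The methods describe background subtraction, LOWESS and a detection rule. The authors' processed value table was not used because its rows could not be tied to probe names.

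Spot intensity was corrected with normexp (offset 50) and normalized by cyclic loess (3 iterations) in limma 3.58.1 (R 4.3.3), and Signal is the mean over 5 spots. Other steps used Python 3.11.15, numpy 2.4.6, pandas 2.3.3, scipy 1.17.1 and matplotlib 3.10.9. A probe was detected when at least 50% of its spots were more than 3 SD of the empty spots higher than the local median, taken over the nearest 20 of them, with a spot CV under 0.5. Undetected tissues, muscle included, entered ratios at the higher of their Signal and the lowest detected Signal of that array. The same holds for the median of the other 4 tissues, so list medians rest in part on these limits. Ratio errors carry the SD over spots, which is technical, and the number of arrays limits the precision.

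Named miRNAs are the muscle-high, muscle-low and absent probes, the brightest probes and members of the listed families. The members and lists were chosen with earlier results of these data known. Alternatives were plain subtraction, quantile, 75th percentile and no normalization, spot medians, other thresholds and leaving liver out of the comparison. Spike scaling was chosen after seeing the data. The steps were tested on simulated data in which equal numbers of probes were raised and lowered in muscle, with a gain for each array. That setting holds no shift of the bulk of the miRNAs, so it does not test how the normalization treats such a shift.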

Additional observations from a re-analysis of the deposited data

How the results depend on the processing

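No paired analysis was possible because each tissue has 1 array. The authors' processed table was not run as an alternative. The median log2 ratio of muscle to the median other tissue over all detected probes was -0.22 in the main processing, -0.57 with quantile normalization, 0.55 with 75th percentile scaling, -1.15 with no normalization and -0.93 with spike scaling, so changes are relative to that shift. Muscle-high probes (32) numbered 11 with no normalization, 13 with spike scaling, 51 without liver and 21 at 3-fold, and 11 probes were muscle-high under every setting. Muscle-low probes (4) numbered 1 with 75th percentile scaling, 8 with none, 8 with spike scaling and 0 at 3-fold. As a percent of the probes tested, those at least 2-fold higher in muscle were 12.2% against liver, 25.2% against spleen, 24.4% against brain and 27.8% against heart, and those lower 18.1% against spleen, 26.96% against brain and 9.05% against heart. With 75th percentile scaling the higher shares were 54.2% (spleen), 45.6% (brain) and 55.4% (heart), and the lower 10.5% (spleen) and 5.43% (heart). With no normalization the higher shares were 12.5% (brain) and 6.56% (heart), and the lower 32.0% (spleen), 56.7% (brain) and 55.2% (heart). With spike scaling, chosen after seeing the data, these 5 shares were 15.3%, 8.14%, 31.4%, 43.5% and 48.0%. With quantile normalization 17.2% were higher than heart, 29.5% lower than spleen and 23.1% lower than heart. At 3-fold, 8.06% were higher than liver, 15.2% higher than heart, 11.0% lower than spleen and 5.20% lower than heart. The log2 ratio to the highest other tissue turned with no normalization to -0.20 for ccr-miR-199-3p, -0.36 for dre-miR-199-3p, -0.82 for dre-miR-199-5p, -0.54 for ola-miR-199a-3p, -0.99 for ola-miR-199a-5p and -0.035 for ola-miR-24b-3p, and with spike scaling to -0.11 for dre-miR-199-3p, -0.57 for dre-miR-199-5p, -0.29 for ola-miR-199a-3p and -0.74 for ola-miR-199a-5p. The cause was not tested. Liver's high background leaves probes under 365.6 there without a level.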

Other observations

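The probe hhi-miR-7641 read 7949 ± 909 in muscle, 7647 ± 1184 in liver, 2599.5 ± 166 in brain, 2525 ± 72.6 in spleen and 1367 ± 269.6 in heart. Its target of 20 bases shares a run of 14 bases with the target of a 5S ribosomal RNA control probe of the array.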
